A study of Mus musculus with 16 samples.

Results

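The neurotrophin system was followed through 6 genes, the ligands Bdnf and Ntf3 and the receptors Ntrk2, Ntrk3, Ngfr and Sort1, taken by gene symbol from tables of 39017 genes. Each was compared between RNA on tagged polysomes (IP) and total RNA (Input) of the prelimbic cortex (PL) in C57BL/6J mice. All groups carried AAV-IV-GFPL10, a virus that delivers a GFP-tagged large-subunit ribosomal protein, in PL. They also received CAV-Cre, a virus taken up by axon endings, in 1 of 3 targets, the nucleus accumbens (NAc), basolateral amygdala (BLA) or ventral tegmental area (VTA), so that the tag marks PL neurons with axons in that target. PL-NAc IP and PL-NAc Input had 3 libraries each, PL-BLA IP and PL-BLA Input 3 each, and PL-VTA IP and PL-VTA Input 2 each. The Input holds all PL cells, the tagged neurons among them, and a tagged neuron may send branches to other targets as well. The labels give neither the age or sex of the animals nor the number behind a library, and do not say that libraries came from separate animals, so the p-values may measure technical spread only.

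Neurotrophins are secreted growth factors made as longer proforms. Mature BDNF (Bdnf) acts on the receptor kinase TrkB (Ntrk2), and neurotrophin-3 (Ntf3) acts mainly on TrkC (Ntrk3). The receptor p75 (Ngfr) binds all neurotrophins and, together with sortilin (Sort1), their proforms. In cortex BDNF is made mainly by excitatory neurons in response to activity, and cortical axons deliver much of the BDNF found in the striatum. TrkB exists as a full-length kinase and as a truncated form abundant in astrocytes, and sortilin also sorts BDNF inside neurons toward regulated secretion.

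Enrichment is given as the log2 ratio of IP over Input that the authors deposited, with its standard error (SE), so positive values mean more in the IP. A gene was called at an adjusted p under 0.05. The sign was read from glial transcripts, so the direction of the glial markers is set by that reading. The IP and Input levels given for single genes were derived from the authors' mean normalized count and fold change. They are approximate, because the deposited fold changes of scarce genes lie close to 0, as shrunken estimates do. Each table was normalized by itself, so levels in different projections are set side by side only as description. No values of single libraries were used here, and no spread between libraries of 1 group can be given.

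Bdnf was higher in the IP of all 3 projections and was the only one of the 6 genes called in every one of them. Ntrk3 was higher in PL-BLA and PL-VTA, Sort1 in PL-BLA, and Ntrk2 was higher in PL-BLA but lower in PL-NAc. Ntf3 and Ngfr were called in no projection. In PL-NAc 1 of the 5 genes with an adjusted p was higher and 1 lower, against 21.4% higher and 21.7% lower among 17998 genes tested in the authors' deposited table. In PL-BLA 4 of 6 were higher and none lower, against 20.8% and 20.2% of 17668 genes in the authors' deposited table. In PL-VTA 2 of 5 were higher and none lower, against 11.0% and 10.5% of 15440 genes in the authors' deposited table. The shares of all genes, here and for the lists below, include scarce genes. They were not matched by abundance to the genes set against them, and the part of abundance in these gaps was not tested. The median log2 fold change of the genes with an adjusted p was 0.19, 0.32 and 0.24 for NAc, BLA and VTA in turn, against -0.03, -0.02 and 0.02 over all genes tested in the same deposited tables of the authors. Over all genes with a mean of at least 50 normalized counts, the median was 0.059, 0.055 and 0.065. In bulk RNA of this kind, more cells that express a gene and more RNA per cell cannot be told apart.

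**Figure D1:**
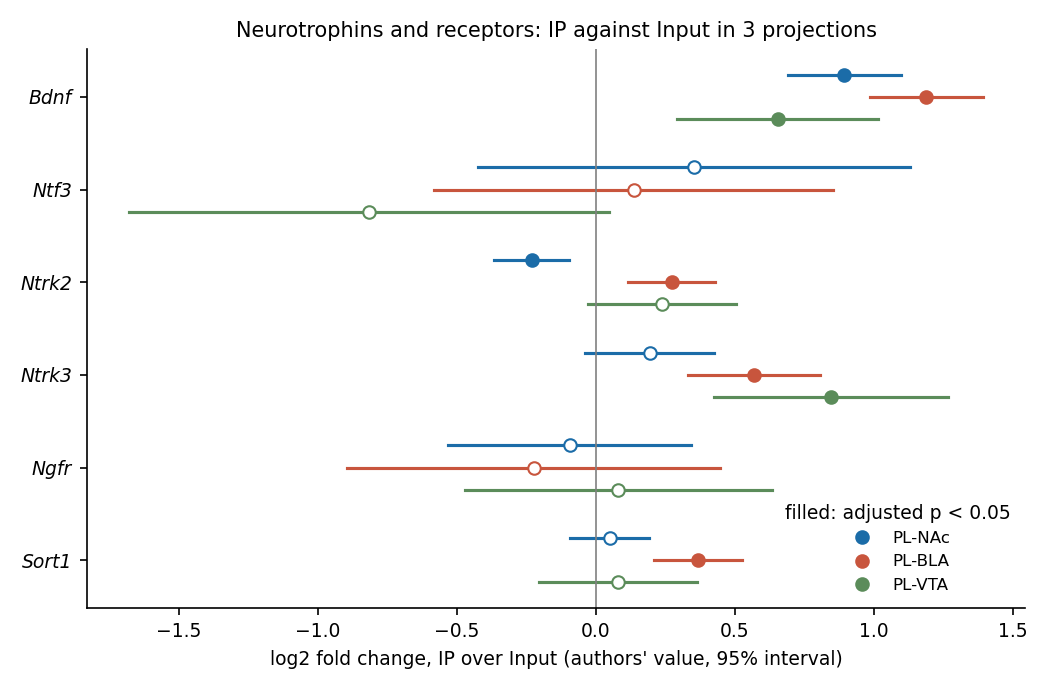
Log2 fold change of IP over Input (x axis) for the 6 genes (y axis) in PL-NAc, PL-BLA and PL-VTA; points are the authors' values, lines their 95% intervals, and filled points have an adjusted p under 0.05. All 3 Bdnf points lie right of 0, and the Ntrk2 point lies left of 0 in PL-NAc and right of it in PL-BLA and PL-VTA.

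Bdnf (ENSMUSG00000048482, chromosome 2, 109674700 to 109727007, plus strand, GRCm38) encodes brain-derived neurotrophic factor. In PL-BLA its level was 1570 normalized counts in the IP against 689 in the Input, a log2 fold change of 1.19 (SE 0.10) or 2.28-fold (95% interval 1.98 to 2.62, adjusted p 1.31e-28, the authors' deposited table). In PL-NAc it was 1409 in the IP against 758 in the Input, at 0.89 (SE 0.10) or 1.86-fold (1.61 to 2.14, adjusted p 1.66e-16, the authors' deposited table). In PL-VTA it was 1114 in the IP against 708 in the Input, at 0.65 (SE 0.18) or 1.57-fold (1.23 to 2.02, adjusted p 0.00326, the authors' deposited table). The increase in PL-VTA rests on 2 libraries a group and has the widest interval of the 3. Of all genes with a mean of at least 50 normalized counts, 99.1% had a lower fold change than Bdnf in PL-BLA, 97.0% in PL-NAc and 93.3% in PL-VTA.

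Transcripts of Bdnf start at several alternative first exons that share 1 coding exon, and the gene-level value sums them all. RefSeq windows of 300 bases around each start were at hand for 7 Bdnf starts. They were searched on both strands for the cAMP response element TGACGTCA, which the activity-dependent factor CREB binds, and for TGACGTGA, the same element with a changed base. A match stood in 1 of the 7, the window of the start at 109692436, known as promoter IV and widely studied for its response to neuronal activity. TGACGTCA itself stood in no Bdnf window, and no other changed form was searched. The match therefore depends on the choice of TGACGTGA. That window is shown because Bdnf was the gene called throughout; capitals mark the match, which is TGACGTGA read on the other strand and begins 38 bases before the start.
Bdnf promoter IV, GRCm38.p6, chr2:109692186-109692485, plus strand: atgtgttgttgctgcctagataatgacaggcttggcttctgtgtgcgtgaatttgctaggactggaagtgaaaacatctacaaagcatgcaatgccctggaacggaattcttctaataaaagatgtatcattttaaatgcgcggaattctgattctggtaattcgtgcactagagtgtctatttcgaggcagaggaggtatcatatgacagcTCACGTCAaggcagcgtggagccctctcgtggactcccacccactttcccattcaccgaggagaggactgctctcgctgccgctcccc
Either element was found in 2.21% of the 32851 RefSeq windows of the same length, 1.79% for TGACGTCA and 0.441% for TGACGTGA. No match was found in the windows of Ntf3 (2), Ntrk2 (1) or Ngfr (1). The match is a description of letters, and the counts do not show which start was used. An antisense gene of GENCODE M21, Gm45346, shares 896 exonic bases with Bdnf, and the library chemistry does not mark the strand, so reads of the pair cannot be told apart there.

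Ntf3 (ENSMUSG00000049107, chromosome 6, 126101412 to 126166910, minus strand) encodes neurotrophin-3 and was scarce. Its mean was 19.4, 28.6 and 15.1 normalized counts for NAc, BLA and VTA in turn in the authors' deposited tables. The log2 fold change was 0.35 (SE 0.40) in PL-NAc, 0.14 (SE 0.37) in PL-BLA and -0.82 (SE 0.44) in PL-VTA in the authors' deposited tables, with adjusted p of 0.515, 0.808 and 0.192. The 95% intervals ran from -0.42 to 1.13 in PL-NAc, from -0.58 to 0.85 in PL-BLA and from -1.68 to 0.05 in PL-VTA. On the linear scale the intervals of PL-NAc (0.745 to 2.19-fold) and PL-BLA (0.668 to 1.81-fold) are wide, so smaller changes were not detectable at this depth.

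Ntrk2 (ENSMUSG00000055254, chromosome 13, 58806569 to 59133970, plus strand) encodes TrkB and changed in opposite directions in the accumbens and amygdala projections. In PL-NAc it fell, at 3001 normalized counts in the IP against 3523 in the Input, a log2 fold change of -0.23 (SE 0.07) or 85.2% of Input (adjusted p 0.00250, the authors' deposited table). In PL-BLA it rose, at 4582 in the IP against 3794 in the Input, 0.27 (SE 0.08) or 1.21-fold (adjusted p 0.00253, the authors' deposited table). In PL-VTA it stood at 4548 in the IP against 3861 in the Input, 0.24 (SE 0.14), and was not called (95% interval -0.03 to 0.50, adjusted p 0.230, the authors' deposited table). The derived Input levels lay between 3523 and 3861, while the IP level of PL-NAc lay below those of PL-BLA and PL-VTA. GENCODE M21 lists 7 protein-coding transcripts of Ntrk2, whose proteins range in length from 466 to 821 codons, and the gene-level value does not separate kinase from truncated forms.

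Because astrocytes also express Ntrk2, the 12 astrocyte markers are given beside it. They were lower in the IP in 12 of 12 cases in PL-NAc, 11 of 12 in PL-BLA and 12 of 12 in PL-VTA, with medians of -2.11, -1.39 and -1.44 in the authors' deposited tables. The lower shares of all genes were 21.7%, 20.2% and 10.5% in the same order. Reading the sign from glial transcripts set the direction of these markers. Aldoc, the most abundant of them, was -1.59 (SE 0.06), -0.80 (SE 0.15) and -1.11 (SE 0.14) for NAc, BLA and VTA in turn in the authors' deposited tables. Their summed derived level was 12738 in the IP against 39709 in the Input in PL-NAc, which is 32.1% of Input. It was 21155 in the IP against 41829 in the Input in PL-BLA (50.6%) and 17511 in the IP against 42181 in the Input in PL-VTA (41.5%). The fold changes of 7 of the 12 markers were lower in PL-NAc than in PL-BLA and those of 4 lower in PL-NAc than in PL-VTA (adjusted p under 0.05, Wald test of the difference), and none was higher in PL-NAc. Among all genes 0.751% and 1.28% were lower in these comparisons. The shift was not particular to astrocytes. In PL-NAc against PL-BLA 5 of 10 oligodendrocyte, 3 of 7 precursor and 2 of 9 microglial markers were also lower, and none was higher. Of 12 inhibitory neuron markers 3 were lower and 2 higher in that comparison. None of the 9 endothelial and mural or the 9 excitatory neuron markers passed in it. No defining astrocyte marker was at 0 in any table. The part of astrocyte RNA in the Ntrk2 values was not tested.

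Ntrk3 (ENSMUSG00000059146, chromosome 7, 78175959 to 78738012, minus strand) encodes TrkC. In PL-VTA it stood at 868 normalized counts in the IP against 483 in the Input, a log2 fold change of 0.85 (SE 0.22) or 1.80-fold (95% interval 1.34 to 2.41, adjusted p 0.000945, the authors' deposited table). In PL-BLA it stood at 822 in the IP against 555 in the Input, at 0.57 (SE 0.12) or 1.48-fold (1.26 to 1.75, adjusted p 1.59e-05, the authors' deposited table). In PL-NAc it stood at 529 in the IP against 462 in the Input, at 0.19 (SE 0.12), and was not called (95% interval -0.04 to 0.42, adjusted p 0.186, the authors' deposited table). In PL-VTA 97.0% of genes with a mean of at least 50 had a lower fold change than Ntrk3, against 90.0% in PL-BLA and 62.2% in PL-NAc. An antisense gene inside the locus, Gm9885, had a mean of 64.9 to 85.9 and shares no exonic base with Ntrk3.

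Ngfr (ENSMUSG00000000120, chromosome 11, 95568818 to 95587735, minus strand) encodes p75 and was at the edge of detection. Its mean was 0.78, 2.55 and 3.11 normalized counts for NAc, BLA and VTA in turn in the authors' deposited tables. Over all libraries of a comparison these come to 4.68, 15.3 and 12.5 normalized counts. The adjusted p was blank in PL-NAc and PL-VTA and 0.647 in PL-BLA in the authors' deposited tables, so a difference between IP and Input could not be detected at this depth.

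Sort1 (ENSMUSG00000068747, chromosome 3, 108284082 to 108361511, plus strand) encodes sortilin. In PL-BLA it rose, at 3263 normalized counts in the IP against 2530 in the Input, a log2 fold change of 0.37 (SE 0.08) or 1.29-fold (95% interval 1.16 to 1.44, adjusted p 3.05e-05, the authors' deposited table). In PL-NAc it stood at 2410 in the IP against 2330 in the Input, at 0.05 (SE 0.07), and was not called (95% interval -0.09 to 0.19, adjusted p 0.637, the authors' deposited table). In PL-VTA it stood at 2605 in the IP against 2465 in the Input, at 0.08 (SE 0.14), and was not called (95% interval -0.20 to 0.36, adjusted p 0.777, the authors' deposited table). The intervals in PL-NAc and PL-VTA leave room for changes of at most 1.14-fold and 1.29-fold upward. An antisense gene at the start of Sort1, Gm12523, shares 338 exonic bases with it and had a mean of 0.171 to 0.467.

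**Figure D2:**
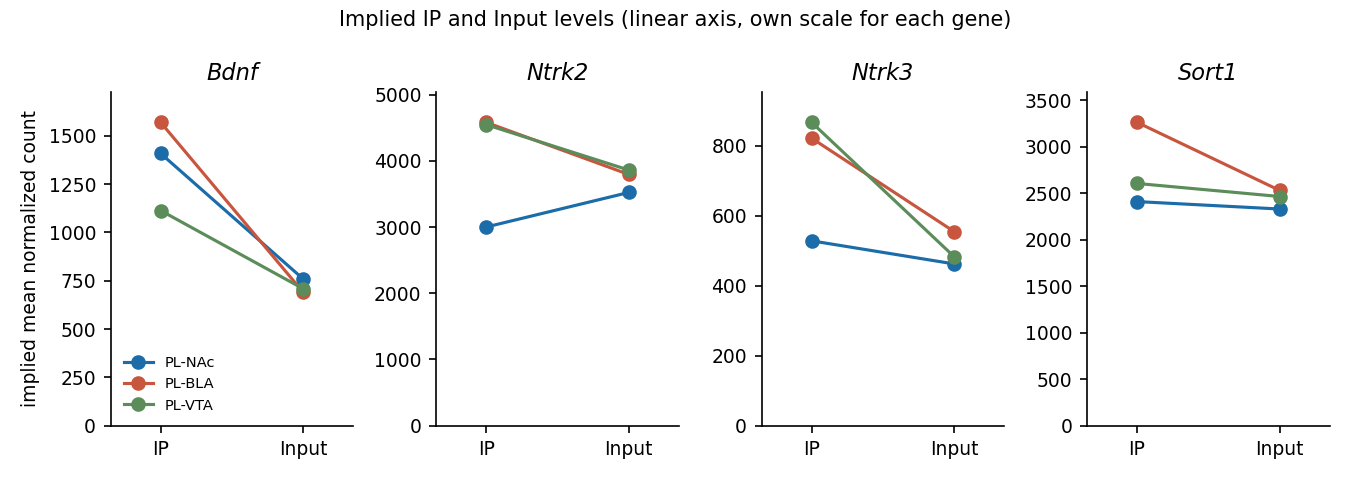
Derived mean normalized count (y axis, linear, from 0) in IP and Input (x axis) for the 4 genes with a mean of at least 50, 1 line for each projection. Lines fall from IP to Input for Bdnf in all 3 projections, and for Ntrk2 only the PL-NAc line runs the other way.

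Per kilobase of merged exon (GENCODE M21), the authors' mean normalized count was highest for Sort1, at 313, 383 and 335 for NAc, BLA and VTA in turn. Ntrk2 had 169, 217 and 218 and Bdnf 174, 182 and 147 per kilobase, in the same order of projections. Ntrk3 had 16.4, 22.8 and 22.4, Ntf3 11.3, 16.7 and 8.81, and Ngfr 0.226, 0.739 and 0.904 per kilobase. These are means over IP and Input libraries together, and the long merged exons of Ntrk3 (30.17 kilobases) and Ntrk2 (19.29) lower their values. Without a spread between libraries it cannot be said which neighbours in this order differ.

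**Figure D3:**
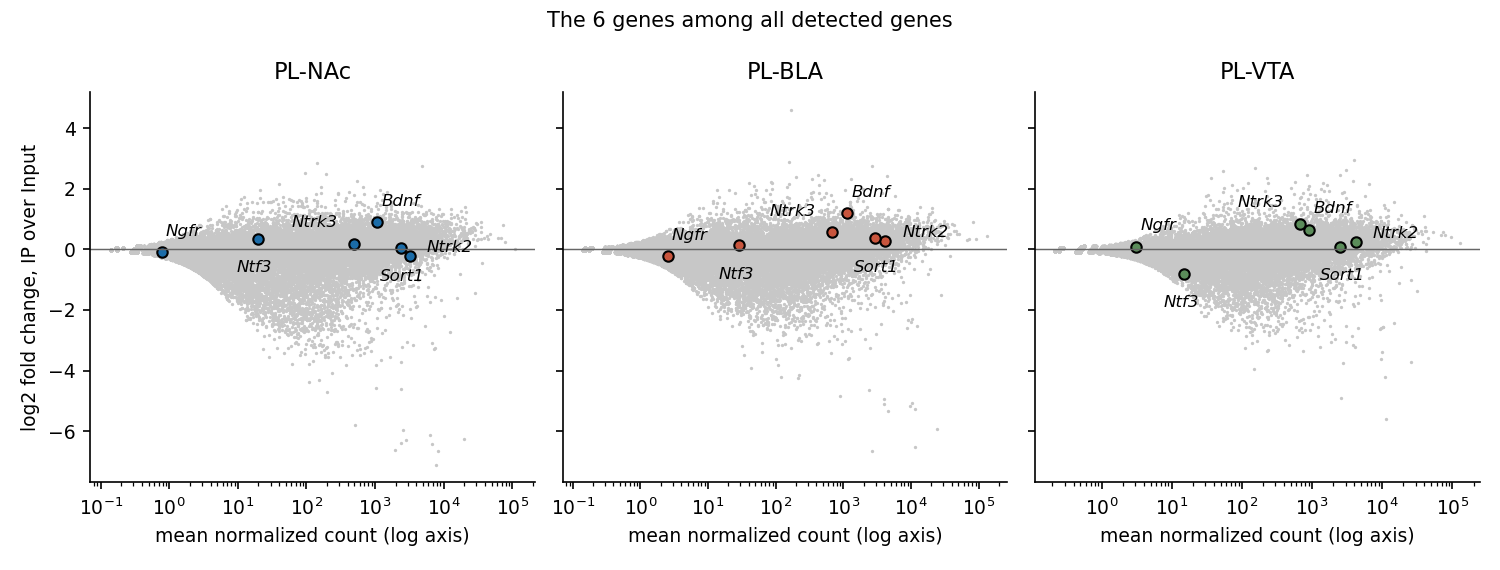
Log2 fold change of IP over Input (y axis) against mean normalized count (x axis, log scale) of all detected genes (grey) with the 6 genes marked, 1 panel for each projection. Bdnf lies near the upper edge of the cloud in PL-BLA, Ngfr and Ntf3 lie among genes of low count, and Ntrk2 and Sort1 lie close to 0 among abundant genes.

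Whether the enrichment of a gene differed between projections was tested as the gap between 2 log2 fold changes, across all genes with a p-value in both tables (two-sided Wald test, Benjamini-Hochberg adjustment). The projections share no library. Of the 18 differences for the 6 genes 1 passed, that of Ntrk2 between PL-NAc and PL-BLA. Among all genes 0.391% were higher and 0.751% lower in PL-NAc than in PL-BLA, of 21981 tested. For PL-NAc against PL-VTA the shares were 1.02% and 1.28% of 21559 genes, and for PL-BLA against PL-VTA 1.56% and 1.49% of 21613.

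The Ntrk2 fold change was lower in PL-NAc than in PL-BLA by a log2 difference of -0.50 (SE 0.11, 95% interval -0.71 to -0.30, adjusted p 0.000516, Wald test). For Ntrk2, PL-NAc minus PL-VTA was -0.47 (SE 0.15, -0.77 to -0.17), which did not pass (adjusted p 0.0795, Wald test). That difference passed when genes with means under 50 were left out (adjusted p 0.0478, range over 4 alternatives 0.0478 to 0.113). Between PL-BLA and PL-VTA the Ntrk2 difference was 0.04 (SE 0.16, -0.27 to 0.35, adjusted p 0.9998, Wald test).

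For Bdnf the difference of PL-NAc minus PL-BLA was -0.29 (SE 0.15, -0.58 to -0.01), with an unadjusted p of 0.0457 and an adjusted p of 0.684 (Wald test). PL-BLA minus PL-VTA was 0.53 (SE 0.21, 0.12 to 0.95), with an unadjusted p of 0.0113 and an adjusted p of 0.230 (Wald test). PL-NAc minus PL-VTA was 0.24 (SE 0.21, -0.17 to 0.65). An order of the projections by Bdnf enrichment was therefore not established.

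Ntrk3 ran from 0.19 in PL-NAc through 0.57 in PL-BLA to 0.85 in PL-VTA, but its widest difference, PL-NAc minus PL-VTA at -0.65 (SE 0.25, -1.13 to -0.17), did not pass (unadjusted p 0.00785, adjusted p 0.209, Wald test). PL-NAc minus PL-BLA was -0.37 (SE 0.17, -0.71 to -0.04) and PL-BLA minus PL-VTA -0.28 (SE 0.25, -0.76 to 0.21). For Sort1 PL-NAc minus PL-BLA was -0.32 (SE 0.11, -0.53 to -0.11), with an unadjusted p of 0.00340 and an adjusted p of 0.179 (Wald test). For Ntf3 PL-NAc minus PL-VTA was 1.17 (SE 0.59, 0.01 to 2.33, adjusted p 0.624, Wald test), and the intervals of the other Ntf3 differences and of all Ngfr differences included 0. Calls of Ntrk3 and Sort1 in some projections and not in others are therefore not shown to be differences between projections.

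**Figure D4:**
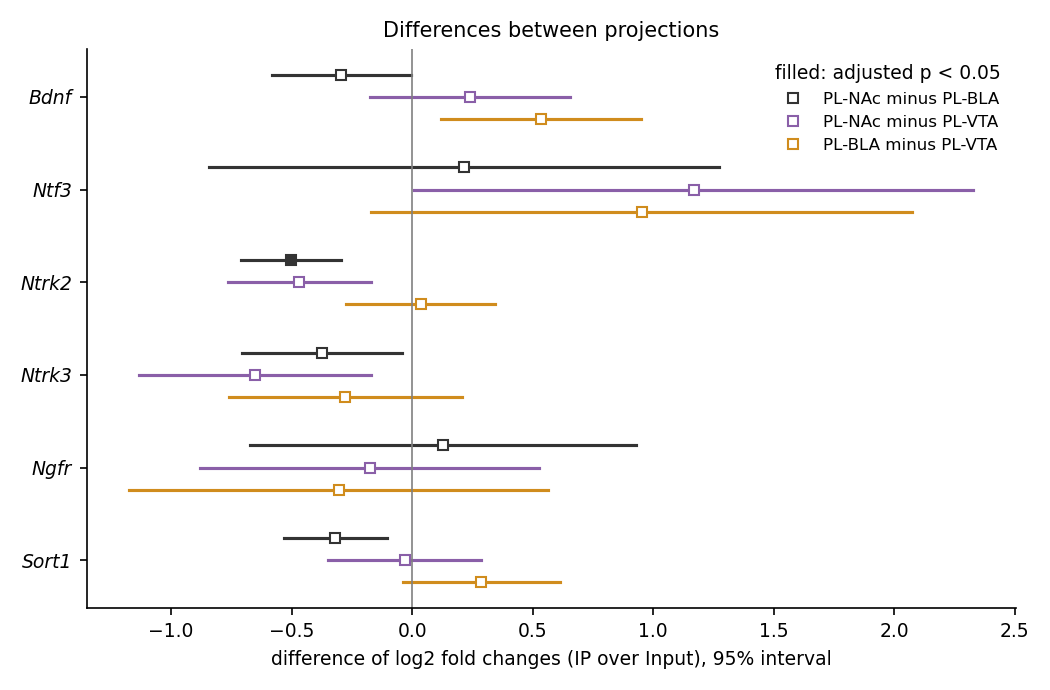
Difference between projections of the log2 fold change of IP over Input (x axis) for the 6 genes (y axis); squares are differences, lines 95% intervals, and filled squares have an adjusted p under 0.05. The only filled square is Ntrk2, PL-NAc minus PL-BLA, at -0.50.

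Genes with the most similar 3 fold changes were found by Euclidean distance over the 3 projections, among 11937 genes with a mean of at least 50 in every table. Nearest to Bdnf were Gm2694 (distance 0.09 on the log2 scale), Adamts13 (0.10) and Aacs (0.15). Nearest to Ntrk2 were Pcdh7 (0.08), Cln6 (0.08) and Lrtm2 (0.09), and nearest to Ntrk3 were Dner (0.11), Emb (0.13) and Tcf19 (0.14). Nearest to Sort1 were a gene listed only as ENSMUSG00000095908 (0.04), Tbc1d22a (0.04) and Mtfmt (0.05). Ntf3 and Ngfr were too scarce for this comparison.

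The rest of the family had 3 members higher and 1 lower of 7 in PL-NAc, 2 and 1 of 7 in PL-BLA, and 3 and 0 of 6 in PL-VTA, with medians of 0.32, 0.20 and 0.33 in the authors' deposited tables. In PL-BLA these are 28.6% higher and 14.3% lower, near the 20.8% and 20.2% of all genes, while the higher shares of 42.9% in PL-NAc and 50% in PL-VTA stood against 21.4% and 11.0% and rest on 3 genes each. All genes called higher were sortilin-related receptors. Sorcs1 was 1.06 (SE 0.21) and Sorcs2, a partner of p75, 0.96 (SE 0.22) in PL-VTA in the authors' deposited table. Sorcs2 was also higher in PL-NAc, at 0.39 (SE 0.14), in the authors' deposited table. Sorcs3 was 0.72 (SE 0.11) in PL-BLA and 0.47 (SE 0.11) in PL-NAc, while its -0.11 (SE 0.22) in PL-VTA was not called, in the authors' deposited tables. Sorl1, a sorting receptor of the same family, was 0.77 (SE 0.15) in PL-VTA, 0.34 (SE 0.08) in PL-BLA and 0.05 (SE 0.07), not called, in PL-NAc in the authors' deposited tables.

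Sorcs1 in PL-NAc, at 0.35 (SE 0.15, adjusted p 0.0452, the authors' deposited table), was no longer called with every gene adjusted together or with the median subtracted (adjusted p over 4 alternatives 0.0353 to 0.106). Ntf5, which encodes neurotrophin-4, had a mean of at most 5.44 in the authors' deposited tables and was not called.

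Between projections, the Sorl1 fold change was lower in PL-NAc than in PL-VTA by -0.72 (SE 0.16, adjusted p 0.00109, Wald test). The Sorcs1 fold change was lower in PL-BLA than in PL-VTA by -0.93 (SE 0.26, adjusted p 0.0145, Wald test). The Sorcs3 fold change was higher in PL-BLA than in PL-VTA by 0.82 (SE 0.25, adjusted p 0.0352, Wald test), and this difference did not pass after scaling by spread (adjusted p over 4 alternatives 0.0214 to 0.0522).

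Among 14 tested genes for processing and secretion of neurotrophins, 7 were higher and 3 lower in PL-NAc, 7 and 2 in PL-BLA, and 4 and 2 in PL-VTA, with medians of 0.14, 0.21 and 0.21 in the authors' deposited tables. The higher shares were 50%, 50% and 28.6%, against 21.4%, 20.8% and 11.0% of all genes. The lower shares of 21.4%, 14.3% and 14.3% lay near or under the 21.7%, 20.2% and 10.5% of all genes, except for PL-VTA, where 2 genes put it above. The proprotein convertase Pcsk2 was 0.62 (SE 0.06) in PL-NAc and 0.79 (SE 0.07) in PL-BLA, and its 0.23 (SE 0.14) in PL-VTA was not called, in the authors' deposited tables. The convertase Pcsk5 was 1.04 (SE 0.16) in PL-NAc, 0.52 (SE 0.16) in PL-BLA and 2.03 (SE 0.22) in PL-VTA in the authors' deposited tables. Its fold change was lower in PL-BLA than in PL-VTA by -1.51 (SE 0.28, adjusted p 7.93e-06, Wald test). For Pcsk5, PL-NAc minus PL-VTA was -0.99 (SE 0.28, adjusted p 0.0208, Wald test). For Pcsk2, PL-BLA minus PL-VTA was 0.56 (SE 0.15, adjusted p 0.0123, Wald test). The convertase Pcsk6 was lower throughout, at -2.26 (SE 0.25), -1.31 (SE 0.22) and -1.52 (SE 0.35) for NAc, BLA and VTA in turn in the authors' deposited tables.

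Cpe, carboxypeptidase E, sorts and trims secretory cargo. In the authors' deposited tables it was 0.31 (SE 0.06) in PL-BLA and 0.17 (SE 0.05) in PL-NAc. Its 0.07 (SE 0.12) in PL-VTA was not called, nor was the PL-NAc value with the median subtracted (adjusted p 0.0663, Wald test). The protease inhibitor neuroserpin, Serpini1, was higher in each projection. The authors' deposited values were 0.31 (SE 0.07), 0.26 (SE 0.07) and 0.65 (SE 0.14) for NAc, BLA and VTA in turn. Hap1, a huntingtin partner in vesicle transport, was also higher in each. Its deposited values from the authors were 0.32 (SE 0.08), 0.39 (SE 0.10) and 0.91 (SE 0.14) in the same order. For Hap1, PL-NAc minus PL-VTA was -0.59 (SE 0.16, adjusted p 0.0168, Wald test). The vesicle priming gene Cadps2 went both ways, at 0.54 (SE 0.17) in PL-VTA but -0.39 (SE 0.09) in PL-NAc and -0.40 (SE 0.10) in PL-BLA in the authors' deposited tables. Its differences from PL-VTA were -0.92 for PL-NAc (SE 0.19, adjusted p 0.000227) and -0.93 for PL-BLA (SE 0.20, adjusted p 0.000240, Wald test).

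Trk adaptors and proximal signalling genes had 4 higher and 9 lower of 23 in PL-NAc, 4 and 11 in PL-BLA, and 2 and 3 in PL-VTA, with medians of -0.19, -0.28 and -0.05 in the authors' deposited tables. The lower shares of 39.1% in PL-NAc and 47.8% in PL-BLA stood against 21.7% and 20.2% of all genes. The higher shares of 17.4% in both, and the 8.70% higher and 13.0% lower in PL-VTA, were near those of all genes (21.4%, 20.8%, 11.0% and 10.5%). The docking protein gene Gab1 was -2.32 (SE 0.16) in PL-NAc, -1.47 (SE 0.15) in PL-BLA and -1.47 (SE 0.27) in PL-VTA in the authors' deposited tables. Its fold change was lower in PL-NAc than in PL-BLA by -0.85 (SE 0.22, adjusted p 0.0169, Wald test). The adaptor Shc1 was -1.38 (SE 0.22) in PL-NAc and -1.16 (SE 0.22) in PL-BLA in the authors' deposited tables. Its -0.77 (SE 0.34) in PL-VTA was not called. The phospholipase Plcg1 was lower in each projection. The authors' deposited values were -0.53 (SE 0.12), -0.54 (SE 0.13) and -0.72 (SE 0.21) for NAc, BLA and VTA in turn. Irs2, an insulin receptor substrate, was higher in each projection, at 0.38 (SE 0.09), 0.70 (SE 0.09) and 0.92 (SE 0.17) for NAc, BLA and VTA in turn in the authors' deposited tables. Sh2b1, an adaptor of Trk kinases, was 0.40 (SE 0.07) in PL-NAc and 0.24 (SE 0.09) in PL-BLA in the authors' deposited tables. In PL-BLA Sh2b1 was no longer called with the median subtracted (adjusted p 0.0972, Wald test). Its 0.19 (SE 0.16) in PL-VTA was not called.

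Partners and effectors of p75 had 9 higher and 4 lower of 18 in PL-NAc, 9 and 3 in PL-BLA, and 6 and 0 in PL-VTA, with medians of 0.19, 0.29 and 0.06 in the authors' deposited tables. The higher shares were 50%, 50% and 33.3%, against 21.4%, 20.8% and 11.0% of all genes. The lower shares of 22.2% in PL-NAc and 16.7% in PL-BLA were near the 21.7% and 20.2% of all genes. Rtn4rl2, a Nogo receptor homolog, was 1.12 (SE 0.09) in PL-NAc, 1.29 (SE 0.09) in PL-BLA and 1.12 (SE 0.18) in PL-VTA in the authors' deposited tables. Lingo1, a co-receptor of p75 and the Nogo receptor, had a higher fold change in PL-BLA than in the other projections. PL-NAc minus PL-BLA was -0.52 (SE 0.09, adjusted p 1.00e-05) and PL-BLA minus PL-VTA 0.73 (SE 0.16, adjusted p 0.000484, Wald test). The Nogo receptor gene Rtn4r was 0.65 (SE 0.09) in PL-NAc and 0.81 (SE 0.08) in PL-BLA in the authors' deposited tables. Its 0.06 (SE 0.16) in PL-VTA was not called, and PL-BLA minus PL-VTA was 0.75 (SE 0.18, adjusted p 0.00290, Wald test). Bex1 and Maged1, whose proteins bind p75, were higher in each projection. The authors' deposited values for NAc, BLA and VTA in turn were 0.93 (SE 0.08), 0.51 (SE 0.09) and 0.77 (SE 0.16) for Bex1. For Maged1 they were 0.41 (SE 0.06), 0.41 (SE 0.07) and 0.63 (SE 0.13).

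The MAPK and PI3K cascade had 10 higher and 14 lower of 37 in PL-NAc, 10 and 13 in PL-BLA, and 6 and 6 in PL-VTA, and the medians were -0.08, -0.20 and -0.05 in the authors' deposited tables. The higher shares of 27.0% in PL-NAc and in PL-BLA were near the 21.4% and 20.8% of all genes. The lower shares there were 37.8% and 35.1%, against 21.7% and 20.2% of all genes. In PL-VTA the higher and the lower share were the same, 16.2%, against 11.0% and 10.5% of all genes. The small GTPase Rheb, which activates mTOR, was 0.73 (SE 0.06) in PL-NAc, 0.73 (SE 0.08) in PL-BLA and 0.70 (SE 0.13) in PL-VTA in the authors' deposited tables. The kinase ERK1, Mapk3, the GTPase Hras, the ERK5 pathway kinase Map2k5 and the PI3K regulatory subunit Pik3r2 were higher in each projection. The authors' deposited values follow for NAc, BLA and VTA in turn. Mapk3 was 0.81 (SE 0.07), 0.54 (SE 0.09) and 0.43 (SE 0.15), and Hras 0.62 (SE 0.07), 0.36 (SE 0.07) and 0.58 (SE 0.13). Map2k5 was 0.47 (SE 0.08), 0.57 (SE 0.09) and 0.66 (SE 0.16), and Pik3r2 0.52 (SE 0.07), 0.57 (SE 0.07) and 0.46 (SE 0.13). The kinase Braf was lower in each, at -0.56 (SE 0.10), -0.71 (SE 0.09) and -0.57 (SE 0.17). In PL-VTA Mapk3 was no longer called with the median subtracted (adjusted p 0.0555, Wald test). The Raf kinase Araf had a higher fold change in PL-NAc than in PL-BLA by 0.34 (SE 0.09, adjusted p 0.0310, Wald test).

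Transcriptional regulators of Bdnf had 4 higher and 10 lower of 20 in PL-NAc, 4 and 6 in PL-BLA, and 2 and 2 in PL-VTA, with medians of -0.15, -0.10 and -0.28 in the authors' deposited tables. The higher shares of 20%, 20% and 10%, and the 10% lower in PL-VTA, were near those of all genes (21.4%, 20.8%, 11.0% and 10.5%). The lower shares of 50% in PL-NAc and 30% in PL-BLA stood against 21.7% and 20.2% of all genes. The activity-dependent factor Mef2c was higher in each, at 0.49 (SE 0.06) in PL-NAc, 0.67 (SE 0.07) in PL-BLA and 0.41 (SE 0.13) in PL-VTA in the authors' deposited tables. The CREB coactivator Crtc1 was 0.58 (SE 0.07) in PL-NAc and 0.51 (SE 0.07) in PL-BLA in the authors' deposited tables. Rest, a repressor of neuronal genes, was -1.68 (SE 0.36) in PL-NAc and -1.20 (SE 0.33) in PL-BLA in the authors' deposited tables. Its -0.78 (SE 0.44) in PL-VTA was not called. Arnt2, a partner of the activity factor NPAS4, was -0.45 (SE 0.14) in PL-VTA in the authors' deposited table. Bhlhe40, a repressor of Bdnf, was 0.89 (SE 0.17) in PL-VTA in the authors' deposited table. Its fold change was higher there than in PL-NAc (PL-NAc minus PL-VTA -0.89, SE 0.18, adjusted p 0.000172) and PL-BLA (PL-BLA minus PL-VTA -0.74, SE 0.19, adjusted p 0.00425, Wald test).

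**Figure D5:**
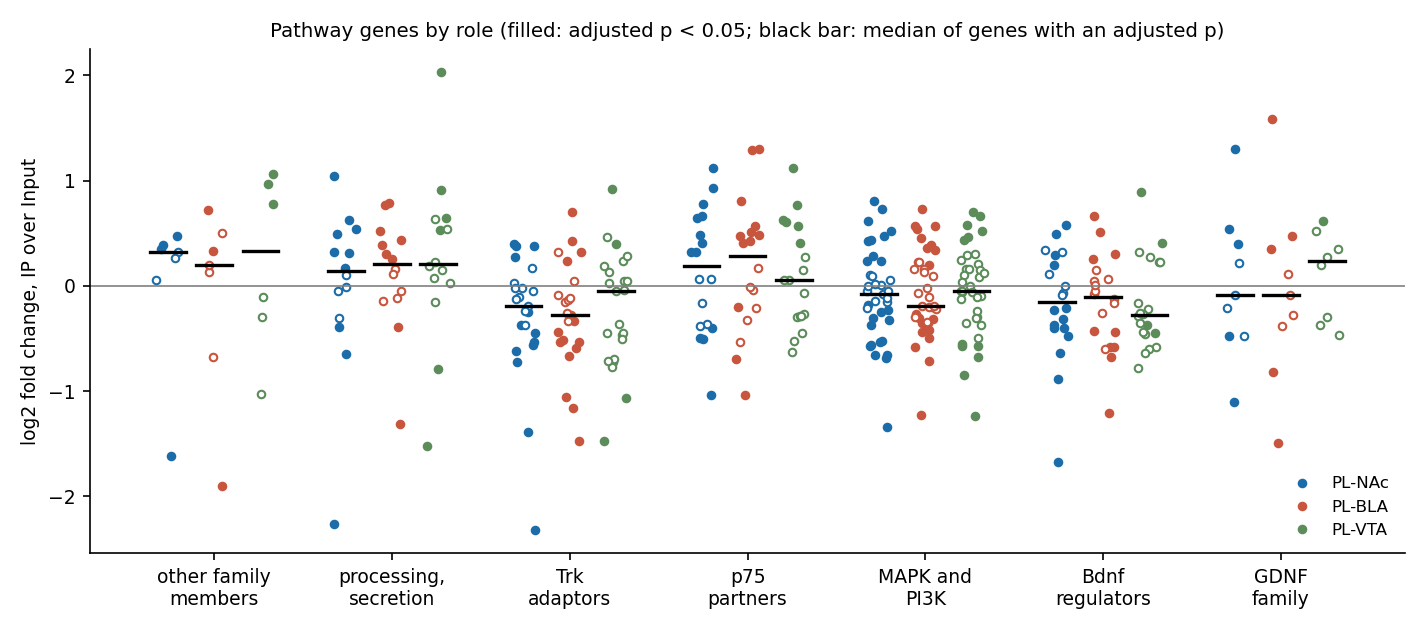
Log2 fold change of IP over Input (y axis) of the genes with an adjusted p in 7 lists (x axis) in PL-NAc, PL-BLA and PL-VTA; each point is a gene, filled at an adjusted p under 0.05, and black bars are medians. The medians of Trk adaptors lie below 0 (-0.19, -0.28 and -0.05) and those of p75 partners above it (0.19, 0.29 and 0.06).

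Cell type markers bear on how these values can be read. The sign was read from glial transcripts, so the lower direction of the glial markers was set in advance. All 10 oligodendrocyte markers were lower in each IP, with medians of -2.94, -2.31 and -2.49 for NAc, BLA and VTA in turn in the authors' deposited tables. For the most abundant marker of each list the authors' deposited values follow for NAc, BLA and VTA in turn. Mbp (oligodendrocytes) was -2.73, -2.53 and -2.43, and Olig1 (their precursors) -3.55, -2.64 and -2.52. Csf1r (microglia) was -1.33, -0.43 and -0.84, and Myl9 (mural cells) -2.23, -1.93 and -1.95. Gad1 (inhibitory neurons) was -1.24, -0.70 and -0.63, and Nrgn (excitatory neurons) 0.49, 0.46 and 0.54. Precursor markers were lower in 6 of 7 in each, with 1 higher in PL-BLA, microglial markers in 9, 8 and 8 of 9, and endothelial and mural markers in 7 of 9, 8 of 9 and 4 of 8, in the authors' deposited tables. Inhibitory neuron markers were lower in 11, 11 and 9 of 12, with 1 higher in PL-NAc and in PL-VTA. Excitatory neuron markers were higher in 7 of 9 in PL-NAc and PL-BLA (1 lower in PL-BLA). In PL-VTA 1 of 9 was higher and 2 lower in the authors' deposited tables. Among all genes tested 21.4%, 20.8% and 11.0% were higher and 21.7%, 20.2% and 10.5% lower for NAc, BLA and VTA in turn. The 11.1% of excitatory markers higher in PL-VTA was near the share of all genes, and the 22.2% lower rests on 2 genes. Summed excitatory levels were 144%, 148% and 119% of Input for NAc, BLA and VTA in turn. The part of these cell types in the neurotrophin values was not tested.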

How the data were processed

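The submitters' processing notes name STAR 2.3, featureCounts and DESeq2, and the builds mm10 and GRCm38. The sources used here do not give other versions, the annotation, the strand setting or filters. The 3 tables give, per the file headers, the authors' mean normalized count (a signal averaged over IP and Input libraries), the log2 fold change with its standard error, the Wald score, and the p-value and adjusted p-value deposited by the authors. The adjusted p is blank for genes with means up to 1.82, 2.39 and 8.58 in the NAc, BLA and VTA tables, whose mean normalized counts summed to 15437849, 16347808 and 16520414.

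Intervals are the value ± the normal 95% quantile times its standard error. IP and Input levels solve for group means of equal numbers of libraries. Differences between projections used a Wald test with Benjamini-Hochberg adjustment, in Python 3.11.15 with scipy 1.17.1. The calculation was tested on simulated data. These drew their noise from the deposited standard errors, so they cannot show whether those errors are right. The planned count model was not run, because comparison tables were used. Coordinates and exon lengths come from GENCODE M21 and promoter windows from RefSeq on GRCm38.p6. The 6 genes, 7 pathway lists and 7 marker lists were chosen with earlier results of these data known. Named were the 6 genes, the other family members, up to 3 called genes with the lowest p of each pathway list and projection, up to 2 of each list and pair of projections, the 3 nearest genes, and the most abundant gene of each marker list; some were given in other projections or pairs too. A few genes that this rule names are not reported here.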

Additional observations from a re-analysis of the deposited data

Results flagged for a closer look

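The difference between projections passed its own test for these values, each given as the difference of log2 fold changes of IP over Input (two-sided Wald test, Benjamini-Hochberg adjustment over all genes). PL-NAc minus PL-BLA was -0.50 for Ntrk2, -0.85 for Gab1, -0.52 for Lingo1, 0.42 for Bex1 and 0.34 for Araf. For Bex1 the difference did not pass after each projection was scaled by its own spread (adjusted p over 4 alternatives 0.0256 to 0.0901). PL-NAc minus PL-VTA was -0.72 for Sorl1, -0.92 for Cadps2, -0.99 for Pcsk5, -0.59 for Hap1, -0.89 for Bhlhe40 and 1.02 for Gfra2. PL-BLA minus PL-VTA was -0.93 for Sorcs1, 0.82 for Sorcs3, -1.51 for Pcsk5, 0.56 for Pcsk2, -0.93 for Cadps2, 0.73 for Lingo1, 0.75 for Rtn4r, -0.74 for Bhlhe40 and 1.31 for Gfra2. Ntrk2 and Cadps2 were called in opposite directions in the projections compared.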

How the results depend on the processing

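The alternatives were every gene adjusted together, a mean of at least 50, a threshold of 0.01, the median subtracted, and scaling by spread. Counting each comparison of the 6 genes under each alternative, 126 entries kept their direction and side of the threshold, 1 newly passed and 1 changed sign. Most of these entries were not called in the main tests and stayed so. Sort1 in PL-NAc, not called, became -0.010 with the median subtracted, as did Sorl1 (-0.0061) and Bhlhe40 (-0.056) there and Rtn4r in PL-VTA (-0.0046). Ntrk2, PL-NAc minus PL-VTA, at -0.47 passed at a mean of at least 50. A threshold of 0.01 left 1099 genes higher in PL-VTA against 1702. It left 160 differences between PL-NAc and PL-BLA against 251, 102 of them lower against 165. Between PL-NAc and PL-VTA it left 314 against 494, with 145 higher against 219 and 169 lower against 275. In PL-VTA the Bdnf regulators lower in the IP were 4 at a mean of at least 50 or with the median subtracted and 0 at 0.01, against 2. The Trk adaptors there were 1 higher and 5 lower with the median subtracted, against 2 and 3, and the p75 partners 2 lower, against 0. No paired analysis was possible because only comparison tables were used, so the replicate block, leaving out replicates and edgeR were not run. PL-VTA had 2 libraries a group and a median standard error of 0.219, against 0.124 in PL-NAc and 0.129 in PL-BLA.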

Other observations

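The GDNF family, another group of neuronal growth factors and receptors, had 3 members higher and 2 lower of 9 tested in PL-NAc, 3 and 2 of 9 in PL-BLA, and 1 and 0 of 8 in PL-VTA, with medians of -0.09, -0.08 and 0.24 in the authors' deposited tables. The lower shares of 22.2% in PL-NAc and in PL-BLA and the higher share of 12.5% in PL-VTA were near those of all genes (21.7%, 20.2% and 11.0%). The higher share of 33.3% in PL-NAc and in PL-BLA, 3 genes each, stood against 21.4% and 20.8%. Gfra2, the neurturin receptor subunit, was 1.30 (SE 0.09) in PL-NAc and 1.59 (SE 0.09) in PL-BLA, and its 0.28 (SE 0.19) in PL-VTA was not called, in the authors' deposited tables. Gfra4 was 0.54 (SE 0.09) in PL-NAc and 0.35 (SE 0.08) in PL-BLA in the authors' deposited tables. Gfra1, the GDNF receptor subunit, was -0.48 (SE 0.17) in PL-NAc and -0.81 (SE 0.17) in PL-BLA in the authors' deposited tables. Neither was called in PL-VTA, at 0.35 (SE 0.14) for Gfra4 and -0.30 (SE 0.28) for Gfra1. Ncam1, an adhesion molecule that also binds GDNF, was 0.40 (SE 0.09), 0.48 (SE 0.09) and 0.62 (SE 0.15) for NAc, BLA and VTA in turn in the authors' deposited tables.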
